A study of Homo sapiens with 24 samples.

Results

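Acute-phase protein mRNAs were measured in HepaRG cells, a human hepatocellular carcinoma line whose cells can behave as liver progenitors and can become hepatocyte-like. The 10 genes described here are CRP, SAA1, SAA2, SAA4, HP, ORM1, ORM2, HAMP, LBP and A2M. They were taken as every array probe whose annotated RefSeq transcript belongs to one of these genes, which gave 12 of the 50683 probes on the array: 2 for CRP, 2 for SAA2 and 1 for each of the other genes. 9 of the 10 genes entered the tests, among 24643 genes tested (a probe without a symbol counted as a gene of its own), because 1 or more conditions had all 3 of their arrays well above background for a probe of the gene; CRP did not meet this filter. Every level below is the log2 of a probe's signal divided by the 75th percentile signal on the same array, so that a level of 0 is the brightness of that percentile, and levels are compared between arrays and never between genes.

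The study asked how Wnt3a acts on these cells and which of its effects need β-catenin (the product of CTNNB1) or yield to FZ8CRD, the soluble Wnt-binding domain of the mouse receptor frizzled 8. There were 8 conditions with 3 arrays each: untransfected untreated cells (NT), untransfected cells with Wnt3a (NT-WNT3A), cells with a control siRNA (siCTRL) or with 1 siRNA against CTNNB1 (siCTNNB1), each without and with Wnt3a, and untransfected cells with FZ8CRD, without and with Wnt3a. Mouse recombinant Wnt3a was used at 200 ng/ml and FZ8CRD at 300 ng/ml for 72 h in serum-free medium with albumin, and siRNA at 80 pmol was introduced by electroporation into cells that had been detached. All cells had been grown with insulin and hydrocortisone. According to the methods, the 3 replicates of a condition come from separate culture experiments.

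The acute-phase response is the change in liver protein synthesis that follows infection or injury. Interleukin-6, acting through STAT3, and interleukin-1 and tumour necrosis factor, acting through NF-κB and C/EBP factors, raise the transcription of the positive acute-phase genes in hepatocytes, and glucocorticoids enhance many of these effects. Albumin, transthyretin and other negative acute-phase proteins go down in the same response. The genes described here include the serum amyloid A apolipoproteins (SAA1 and SAA2 are inducible and SAA4 is constitutive in liver), the pentraxin CRP, the haemoglobin scavenger haptoglobin (HP), the plasma carrier orosomucoid (ORM1, ORM2), the protease inhibitor α2-macroglobulin (A2M), the lipopolysaccharide-binding protein LBP and the iron hormone hepcidin (HAMP).

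The arrays came from 3 slides, and the replicate number of a condition was the number of its slide. The 75th percentile of the raw signal lay between 642.7 and 933.8 intensity units, and 58.3% to 66.5% of spots were well above background. CTNNB1 had a mean level of 3.37 to 3.80 in the 6 conditions without its siRNA and of 0.38 and 0.54 in the 2 conditions with it. The number of arrays, 3 for each condition, limits the precision. Each condition kept 1 place on every slide, with the Wnt3a samples in the second row, so place and condition cannot be told apart.

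Untreated cells were the highest condition for 8 of the 9 tested genes, HAMP being the exception, although their range overlapped that of the next condition for all of these but LBP, and the means of the 8 conditions spanned from 5.36-fold for HP to 12.9-fold for SAA2. The lowest mean was that of control siRNA with Wnt3a for SAA2, SAA4, HP, ORM1, ORM2 and A2M, and that of FZ8CRD with Wnt3a for SAA1, LBP and HAMP.

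**Figure D1:**
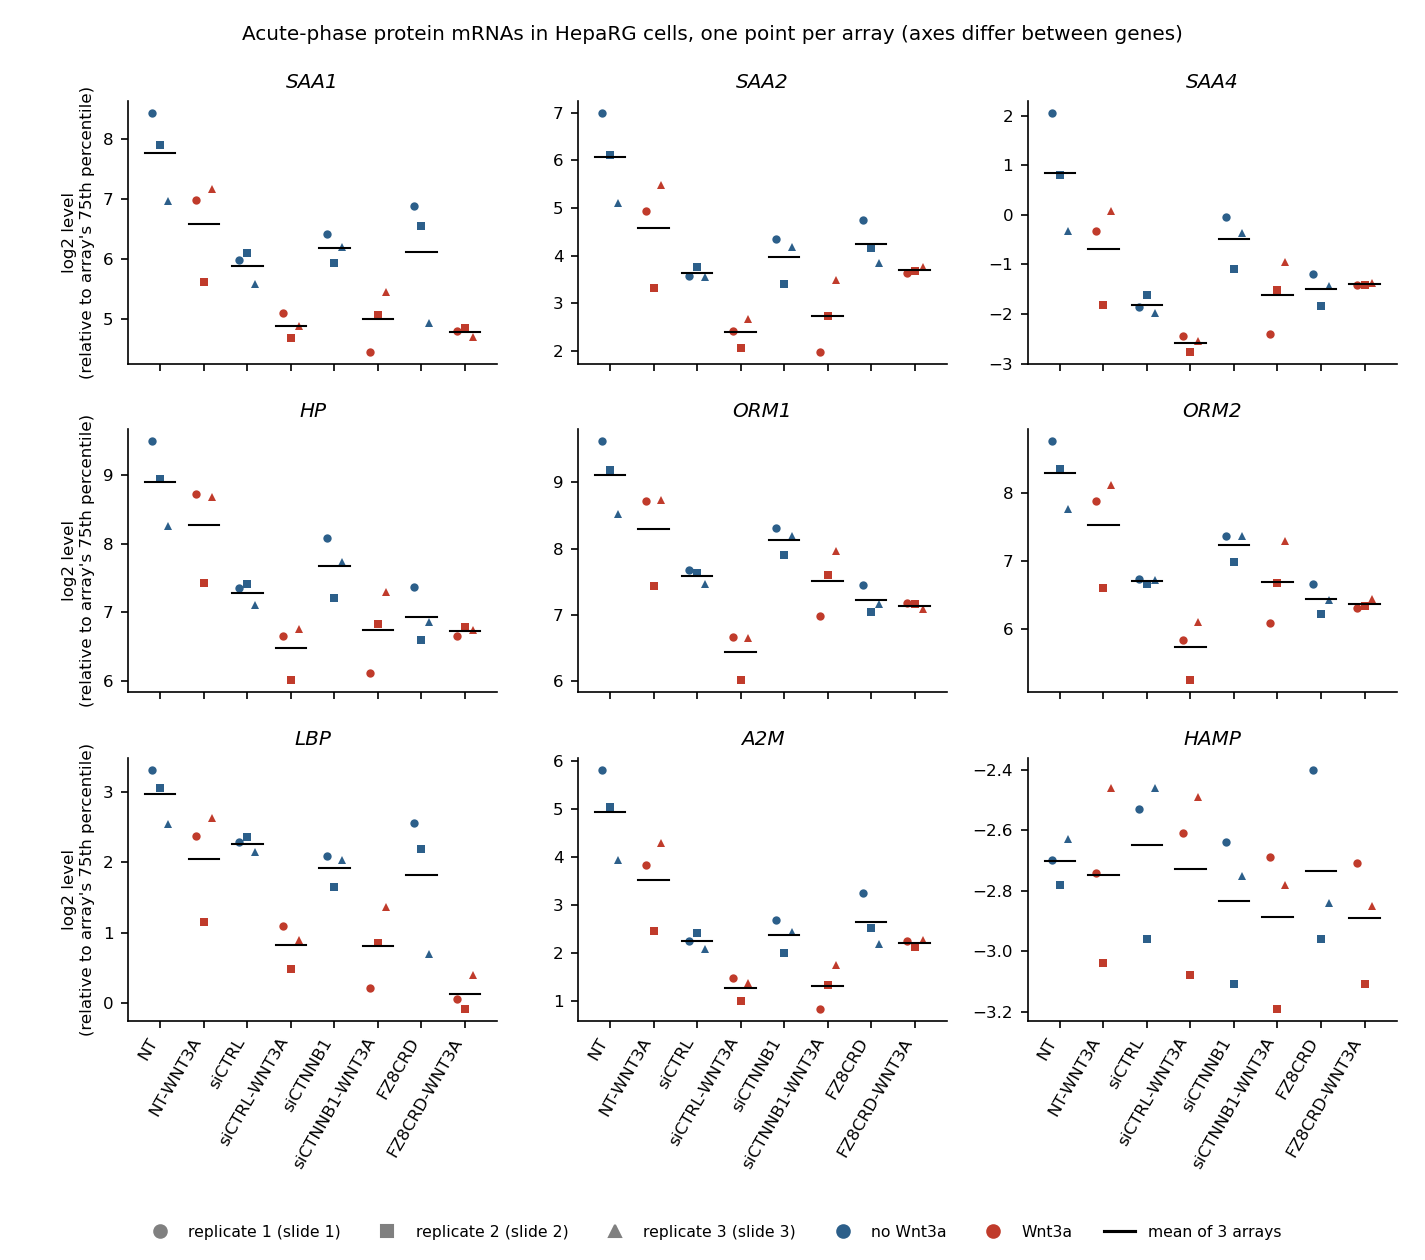
Level of each of the 9 tested genes on all 24 arrays: the y axis is the log2 level relative to the 75th percentile of the array, the x axis the 8 conditions, the point shape the replicate (slide), the colour the presence of Wnt3a and the bar the mean of 3 arrays. Untreated cells (NT) stand highest in 8 of the 9 panels, while HAMP stays between -3.19 and -2.40 throughout.

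The serum amyloid A genes lie together on chromosome 11. SAA1 was at 8.44, 7.90 and 6.97 in untreated cells (replicates 1, 2 and 3), at 6.98, 5.62 and 7.17 with Wnt3a, at 5.98, 6.10 and 5.58 after control siRNA and at 5.11, 4.69 and 4.88 after control siRNA with Wnt3a. After CTNNB1 siRNA it was at 6.42, 5.94 and 6.21 without Wnt3a and at 4.46, 5.07 and 5.46 with it. With FZ8CRD it was at 6.88, 6.55 and 4.94, and with FZ8CRD and Wnt3a at 4.80, 4.85 and 4.70. Untreated cells were high and variable, the lowest group was FZ8CRD with Wnt3a, and replicate 3 with FZ8CRD lay beside that group rather than beside its own replicates.

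SAA2 had 2 probes, one annotated to the transcript NM_030754 and one to NM_001127380, and the brighter one, to NM_030754, is the value reported for the gene. It was at 7.0, 6.12 and 5.11 in untreated cells and at 4.94, 3.33 and 5.49 with Wnt3a. After control siRNA it was at 3.57, 3.77 and 3.55, and with Wnt3a added at 2.43, 2.07 and 2.68, below all 3 arrays without Wnt3a. After CTNNB1 siRNA it was at 4.36, 3.41 and 4.18 without and at 1.99, 2.73 and 3.50 with Wnt3a. The levels with FZ8CRD were 4.76, 4.17 and 3.84, and with FZ8CRD and Wnt3a 3.64, 3.68 and 3.76.

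The constitutive gene SAA4 was at 2.06, 0.81 and -0.32 in untreated cells, the widest replicate spread of the tested genes there (SD 1.19, n = 3), and at -0.33, -1.81 and 0.07 with Wnt3a. It was at -1.85, -1.62 and -1.98 after control siRNA and at -2.44, -2.76 and -2.54 with Wnt3a added, the lowest group. After CTNNB1 siRNA it was at -0.04, -1.09 and -0.36 without and at -2.40, -1.52 and -0.96 with Wnt3a. With FZ8CRD it was at -1.20, -1.83 and -1.44 and, with Wnt3a as well, at -1.41, -1.41 and -1.38, the narrowest spread of any tested gene in any condition (SD 0.0197, n = 3). The 10 spots of the SAA4 probe on an array had a median SD of 0.0592 on the log2 scale.

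The condition means of SAA4, the constitutive gene, spanned 10.8-fold, so its promoter window is shown, from 250 bases before to 50 bases after the gene's start in the RefSeq annotation of GRCh38.p14, at chr11:18236753-18237052 on the minus strand and written 5′ to 3′. Capitals mark matches to TTGCNNAA, a core that C/EBP factors bind, searched on both strands. There were 3 matches, all on the opposite strand, and 10.5% of the 35116 promoter windows of this length hold at least 1.
SAA4: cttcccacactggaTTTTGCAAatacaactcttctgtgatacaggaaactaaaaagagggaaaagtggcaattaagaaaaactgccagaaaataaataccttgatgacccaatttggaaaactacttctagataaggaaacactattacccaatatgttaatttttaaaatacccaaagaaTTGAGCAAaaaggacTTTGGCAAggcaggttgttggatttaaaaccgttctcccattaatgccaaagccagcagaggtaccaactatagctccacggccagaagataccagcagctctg
A match of letters is a description of the sequence and does not show that a factor binds there.

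Haptoglobin, ORM1 and ORM2 are abundant plasma proteins made by hepatocytes. HP was at 9.49, 8.94 and 8.25 in untreated cells, at 8.72, 7.42 and 8.68 with Wnt3a, at 7.35, 7.41 and 7.10 after control siRNA and at 6.66, 6.01 and 6.75 after control siRNA with Wnt3a. After CTNNB1 siRNA it was at 8.08, 7.20 and 7.73 without and at 6.11, 6.83 and 7.30 with Wnt3a, and with FZ8CRD at 7.36, 6.59 and 6.86 without and at 6.66, 6.78 and 6.74 with it. The probe of HPR, the haptoglobin-related gene of similar sequence, followed HP with r = 0.995 over the 24 arrays, so how far each probe reads the other transcript was not tested.

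ORM1 was at 9.62, 9.19 and 8.52 in untreated cells and at 8.72, 7.44 and 8.74 with Wnt3a. It was at 7.68, 7.64 and 7.47 after control siRNA and at 6.67, 6.02 and 6.66 with Wnt3a added, a group that lay below all 7 others. After CTNNB1 siRNA it was at 8.31, 7.91 and 8.19 without and at 6.98, 7.61 and 7.97 with Wnt3a, and with FZ8CRD at 7.46, 7.05 and 7.17 without and at 7.18, 7.16 and 7.09 with it. ORM2, the neighbouring gene on chromosome 9, had means of 8.28, 7.53, 6.71, 5.74, 7.24, 6.69, 6.44 and 6.37 in the same order of conditions and a correlation of r = 0.992 with ORM1. The 2 genes are nearly identical copies and their probes may share signal.

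The ORM1 window is shown as that of a gene whose level followed albumin (r = 0.988); it lies at chr9:114322848-114323147 on the plus strand of GRCh38.p14. Capitals mark TATAAA, the TATA box, searched on both strands, which 11.5% of the windows hold; TTGCNNAA, TTCNNNGAA (a STAT3 core), CTTTGA (a TCF/LEF core) and a consensus κB site for NF-κB had no match in it, which says only that these letters are not in these 300 bases.
ORM1: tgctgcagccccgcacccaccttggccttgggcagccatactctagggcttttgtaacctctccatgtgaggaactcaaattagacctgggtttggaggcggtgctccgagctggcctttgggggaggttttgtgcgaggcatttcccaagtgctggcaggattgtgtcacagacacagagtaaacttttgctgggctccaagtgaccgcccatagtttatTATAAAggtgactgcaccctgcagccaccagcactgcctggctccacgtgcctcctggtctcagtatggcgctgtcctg
TATAAA began 29 bases before the annotated start, as it did in the window of CRP.

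A2M, a broad protease inhibitor and in humans only weakly an acute-phase protein, was at 5.82, 5.05 and 3.93 in untreated cells and at 3.84, 2.45 and 4.30 with Wnt3a. It was at 2.25, 2.42 and 2.09 after control siRNA, at 1.48, 0.99 and 1.37 with Wnt3a added, at 2.68, 2.01 and 2.43 after CTNNB1 siRNA and at 0.84, 1.34 and 1.75 with Wnt3a added. With FZ8CRD it was at 3.25, 2.53 and 2.19, and with Wnt3a as well at 2.25, 2.12 and 2.28. All 18 arrays of transfected or FZ8CRD-treated cells lay below the lowest array of untreated cells.

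LBP, which carries lipopolysaccharide to CD14, was at 3.31, 3.05 and 2.54 in untreated cells and at 2.37, 1.15 and 2.62 with Wnt3a. It was at 2.29, 2.36 and 2.14 after control siRNA, at 1.09, 0.48 and 0.90 with Wnt3a added, at 2.08, 1.65 and 2.03 after CTNNB1 siRNA and at 0.21, 0.85 and 1.36 with Wnt3a added. With FZ8CRD it was at 2.55, 2.19 and 0.70, and with Wnt3a as well at 0.05, -0.08 and 0.40. FZ8CRD with Wnt3a was the lowest group, as for SAA1, and its range overlapped that of 1 other group, CTNNB1 siRNA with Wnt3a.

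HAMP encodes hepcidin, which closes the iron exporter ferroportin and is induced by both BMP and interleukin-6 signals. On each of the 24 arrays its probe was above background but dim, at 10.9% to 19% of the 75th percentile signal, and its condition means ranged from -2.89 to -2.65, a span of 1.18-fold. In each of the 8 conditions slide 2 gave the lowest of the 3 values. It was called in no comparison. The limma differences lay between -0.18 and 0.05. Their standard error was 0.204 between conditions and 0.288 for the differences in Wnt3a response. For control siRNA without Wnt3a, for example, the 95% interval was -0.37 to 0.48. The 3 genes with the most similar values, UMOD (r = 0.871), GPX5 (r = 0.863) and OR6C74 (r = 0.840), are known for expression outside the liver.

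The HAMP window is shown because it holds the matches that the other windows lack; it lies at chr19:35282278-35282577 on the plus strand of GRCh38.p14. Capitals mark GGCGCC, the BMP response element, from 105 bases before the start, and TTCNNNGAA, from 93 bases before it. Of the 35116 windows, 19.2% hold GGCGCC and 7.66% hold TTCNNNGAA.
HAMP: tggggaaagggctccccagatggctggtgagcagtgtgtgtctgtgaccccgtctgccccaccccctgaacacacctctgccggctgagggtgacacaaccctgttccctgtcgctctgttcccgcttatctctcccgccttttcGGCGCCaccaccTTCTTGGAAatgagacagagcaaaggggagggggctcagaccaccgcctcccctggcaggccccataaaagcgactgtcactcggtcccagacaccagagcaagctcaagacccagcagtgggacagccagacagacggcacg
Among the 4 windows available for these genes (CRP, SAA4, ORM1 and HAMP), HAMP alone held either match.

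CRP, the classical plasma marker of inflammation, was close to the limit of detection. Its 2 probes were well above background on 2 and 4 of the 24 arrays, and on the 3 untreated arrays they read -2.77, -4.89 and -6.08, and -2.45, -4.59 and -6.10. The floor was -6.13 (1.43% of the 75th percentile signal), and no array outside untreated cells read above -5.43. Against cells with control siRNA, where neither probe was well above background, untreated cells were at least 2.82-fold and 3.24-fold higher, and against FZ8CRD at least 2.92-fold and 3.36-fold higher, for the 2 probes respectively. These bounds set the mean of the brighter group against, for each dimmer array, the lowest signal well above background or the probe's own signal where that was higher. In untreated cells only replicates 1 and 2 were well above background. The bounds rest mostly on replicate 1, the brightest untreated array (-2.77 and -2.45), and were not computed without it.

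Cells with the control siRNA had lower levels of most of these genes than untransfected cells. No condition had electroporation without siRNA, so the siRNA and its delivery cannot be told apart. Without Wnt3a, 7 of the 9 tested genes fell (limma, adjusted p under 0.05) and none rose, where 10.1% of all tested genes fell. A2M fell by 2.68 (SE 0.418, adjusted p = 0.000263, limma), a 6.40-fold difference, SAA4 by 2.67 (SE 0.483, adjusted p = 0.000672) and SAA2 by 2.45 (SE 0.475, adjusted p = 0.00112). SAA1 fell by 1.88, HP by 1.61, ORM2 by 1.57 and ORM1 by 1.51, with adjusted p from 0.00147 to 0.00399. LBP differed by -0.70 (SE 0.397, adjusted p = 0.236) although its 3 arrays lay below all 3 untreated ones, as for 17.5% of all tested genes, and HAMP by 0.05. The median difference of the 9 genes was -1.61, against -0.03 over all tested genes. All 7 calls were lost when replicate 1 was left out of every condition, with differences of -2.23 for A2M to -1.30 for ORM1, but only 0.353% of all tested genes fell in that fit. In bulk RNA, fewer cells of a type and less RNA per cell cannot be told apart.

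With Wnt3a in both arms, 7 genes (SAA1, SAA2, SAA4, HP, ORM1, ORM2 and A2M) again fell after control siRNA and none rose, against 3.59% of all tested genes that fell. The differences ran from -2.25 for A2M (SE 0.418, adjusted p = 0.00452, limma) to -1.70 for SAA1 (SE 0.436, adjusted p = 0.0198), and LBP differed by -1.22 (SE 0.397, adjusted p = 0.0599). LBP was lower on all 3 slides (-1.29, -0.67 and -1.71), and with slide as a block it was called as well (adjusted p = 0.0470, limma), where 6.03% of all tested genes fell. None of the 9 genes was called without replicate 1 of every condition, where 0% of all tested genes fell. The differences of the 7 genes still ran from -2.20 (A2M) to -1.61 (SAA1) in that fit. All 7 calls were also lost in a fit of these 2 conditions alone, where 0.00406% of all tested genes fell. The calls of SAA1 and SAA4 held in 11 and 10 of 20 alternatives and were lost, among others, with spike-in scaling and with no filter, where 0.422% and 1.4% of all tested genes fell. Without replicate 1 of NT-WNT3A or replicate 2 of siCTRL-WNT3A 3 genes were called, where 0.45% and 0.605% of all tested genes fell.

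FZ8CRD also lowered most of these genes in untransfected cells, in a comparison that shares its control arrays with that of the control siRNA. Without Wnt3a, 8 of 9 fell and none rose, where 22.2% of all tested genes fell. SAA4 fell by 2.34 (SE 0.483, adjusted p = 0.000615, limma), A2M by 2.28 (SE 0.418, adjusted p = 0.000206), HP by 1.96, ORM1 by 1.88, ORM2 by 1.84, SAA2 by 1.82 and SAA1 by 1.64. LBP fell by 1.15 (SE 0.397, adjusted p = 0.0245), but by 0.60 (adjusted p = 0.192) without replicate 3 of FZ8CRD, where it was lowest. Its call held in 12 of 20 alternatives and was also lost with no filter, in a fit of the 2 conditions alone, without replicate 1, 2 or 3 of every condition and without replicate 1 or 2 of NT, settings in which 11.9% to 23.7% of all tested genes fell. HAMP differed by -0.03 (SE 0.204). The median difference of the 9 genes was -1.84, against -0.09 over all tested genes, and 6 to 8 genes were called whichever replicate was left out, where 13% to 23.7% of all tested genes fell.

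With Wnt3a in both arms, FZ8CRD lowered 6 of 9 genes and raised none, against 18.9% of all tested genes that fell. LBP fell by 1.92 (SE 0.397, adjusted p = 0.000788, limma), SAA1 by 1.81 (SE 0.436, adjusted p = 0.00276), HP by 1.55, A2M by 1.31 (SE 0.418, adjusted p = 0.0178), ORM1 by 1.16 and ORM2 by 1.16. The A2M call held in 13 of 20 alternatives and was lost with no filter, in a fit of the 2 conditions alone, without replicate 1 or 3 of every condition or of NT-WNT3A, and without replicate 2 of FZ8CRD-WNT3A, settings in which 8.71% to 21.3% of all tested genes fell. SAA2 differed by -0.89 (SE 0.475, adjusted p = 0.153) and SAA4 by -0.71 (SE 0.483, adjusted p = 0.272). With the mean of its 2 probes SAA2 fell by 2.81 (adjusted p = 0.00049, limma), where 19% of all tested genes fell. Without replicate 2 of NT-WNT3A SAA2 fell by 1.52 (adjusted p = 0.00958) and SAA4 fell by 1.27 (adjusted p = 0.0404), where 18.4% of all tested genes fell. HP and LBP were the 2 genes called without replicate 1 of every condition, where 8.71% of all tested genes fell, and 3 genes were called without replicate 3, where 21.3% fell.

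**Figure D2:**
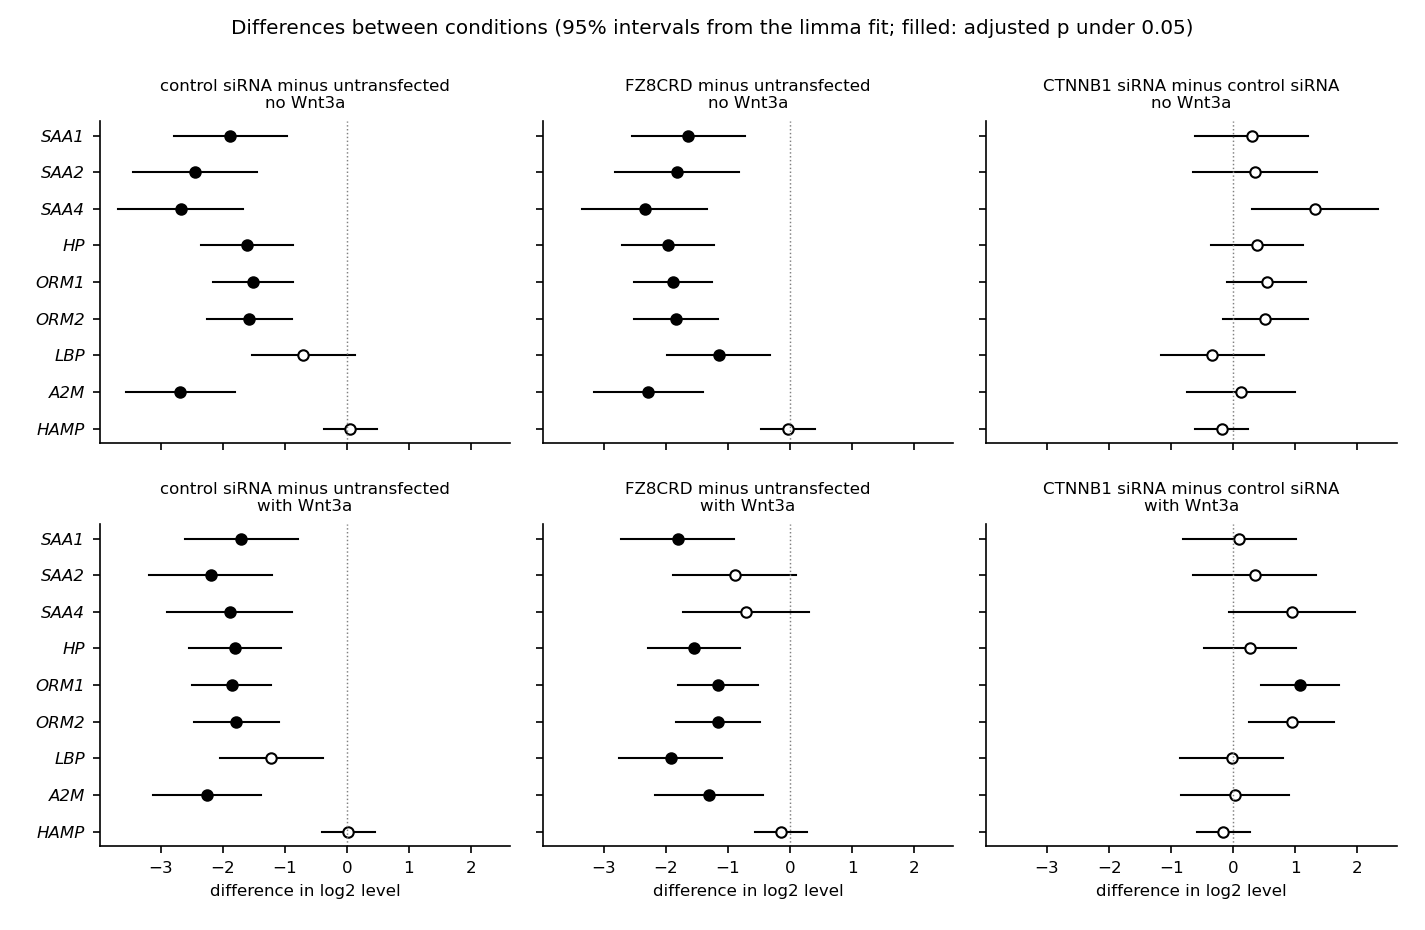
Difference in log2 level for each tested gene in 6 comparisons: the x axis is the difference, bars are 95% intervals from the limma fit over all 24 arrays, and filled points have an adjusted p under 0.05. Control siRNA and FZ8CRD lie left of 0 for the 8 genes other than HAMP, which lies between -0.14 and 0.05 in these comparisons, and ORM1 with Wnt3a is the 1 filled point for CTNNB1 siRNA against control siRNA.

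Wnt3a in untransfected cells gave lower mean levels for all 9 tested genes, but none was called: the median difference was -0.92, against 0.01 over all tested genes, of which 2.61% fell and 5.6% were called in either direction. A2M differed by -1.40 (SE 0.418, adjusted p = 0.0533, limma), SAA4 by -1.54 (SE 0.483, adjusted p = 0.0652), SAA2 by -1.49 (SE 0.475, adjusted p = 0.0700) and SAA1 by -1.18 (SE 0.436, adjusted p = 0.115). LBP differed by -0.92, ORM1 by -0.81, ORM2 by -0.76 and HP by -0.62. At an unadjusted p under 0.05, 7 of the 9 genes passed, where 21.2% of all tested genes did. With slide as a block, SAA2, SAA4 and A2M were called (adjusted p = 0.0458, 0.0421 and 0.0318, limma), and 5.36% of all tested genes fell in that fit. At the thresholds of the study's methods (unadjusted p under 0.01 and a fold above 1.5 or below 0.7), 3 of 9 passed, where 4.42% of all tested genes did; for Wnt3a after control siRNA 3 passed (2.76% of all), with FZ8CRD 2 (5.73%), and for CTNNB1 siRNA with Wnt3a 2 (6.46%).

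The slides did not show the same Wnt3a difference. On slides 1 and 2, 9 of 9 genes were lower with Wnt3a (medians -0.94 and -1.90), and on slide 3 none was (median 0.35). The share of all tested genes lower on each slide is not given, here or for the siRNA settings below. Each array was also set against the mean of the other replicates of its condition. Untreated replicate 3 lay below that mean by a median of 0.96 over the 9 genes, and replicate 2 with Wnt3a by 1.38. Without replicate 3 of every condition 7 genes were called (all but HP and HAMP), with differences from -2.51 for SAA4 (adjusted p = 0.00567, limma) to -1.31 for ORM2 (adjusted p = 0.0179), and without replicate 3 of NT alone, or of NT-WNT3A alone, 5 were called. Over all tested genes the share that fell rose as well, to 13.4% without replicate 3 of every condition, 6.85% without that of NT and 6.16% without that of NT-WNT3A. The median SD of the 9 genes among the 3 replicates was 0.621 in untreated cells and 0.807 with Wnt3a, where the median over all tested genes was 0.183 and 0.212.

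**Figure D3:**
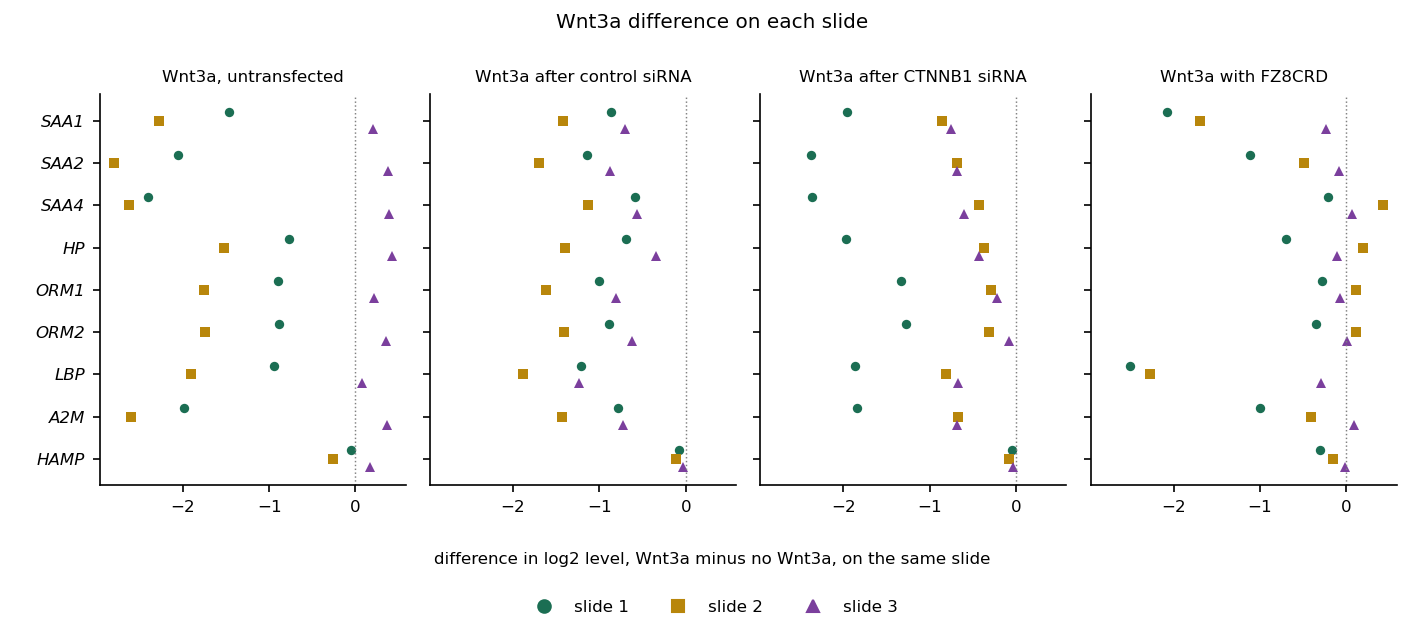
Difference in log2 level between the Wnt3a and no-Wnt3a arrays that share a slide, for each tested gene (y axis) in 4 settings; shapes and colours are the 3 slides. In untransfected cells slide 3 lies right of 0 for all 9 genes, whereas after either siRNA the points of all 3 slides lie left of 0 for all 9 genes.

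After control siRNA, Wnt3a gave lower levels for 9 of 9 genes on each of the 3 slides (medians -0.87, -1.42 and -0.70), and for 8 of 9 the Wnt3a arrays lay below all 3 arrays without it, where 12% of all tested genes did. None was called in the fit over all 24 arrays (0 of 9, against 1.02% of all tested genes that fell), with 7 at an unadjusted p under 0.05, where 14% of all tested genes passed. LBP differed by -1.44 (SE 0.397, adjusted p = 0.0636, limma), SAA2 by -1.24 (SE 0.475, adjusted p = 0.210), ORM1 by -1.15 (SE 0.306, adjusted p = 0.0555) and SAA1 by -1.0 (SE 0.436, adjusted p = 0.294). With slide as a block ORM1 (adjusted p = 0.0324) and LBP (adjusted p = 0.0484) were called, where 2.17% of all tested genes fell. In a fit of these 2 conditions alone, whose replicates were closer than those of untransfected cells, 7 were called (all but HP and HAMP), from LBP (adjusted p = 0.00924) to ORM2 (adjusted p = 0.0499), where 3.41% of all tested genes fell.

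After CTNNB1 siRNA, Wnt3a also gave lower levels for 9 of 9 genes on each slide (medians -1.87, -0.43 and -0.60). Here the Wnt3a arrays lay below all 3 arrays without it for only 3 of 9 genes, as for 10.4% of all tested genes. None was called (limma), where 0.00406% of all tested genes fell, and 6 passed at an unadjusted p under 0.05, as did 10.4% of all tested genes. SAA2 differed by -1.24, SAA1 by -1.19, SAA4 by -1.13, LBP by -1.12 and A2M by -1.06, with adjusted p from 0.319 to 0.414, and the median of -1.06 stood against 0.03 over all tested genes. The smallest differences were those of ORM1 (-0.61), ORM2 (-0.55) and HAMP (-0.05).

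The difference between the 2 Wnt3a responses, after CTNNB1 siRNA minus after control siRNA, was called for none of the 9 genes and passed at an unadjusted p under 0.05 for none (limma; 0.0162% of all tested genes were called and 3.34% passed unadjusted). For LBP it was 0.33, with a 95% interval of -0.85 to 1.5, and for SAA1 -0.19 (-1.48 to 1.09). ORM1 had the largest, 0.54 (-0.37 to 1.44). These intervals are wide enough to hold both no difference and one as large as the Wnt3a difference itself.

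With FZ8CRD present, Wnt3a lowered 1 of 9 genes by the reported probes, LBP, where 3.94% of all tested genes fell; 2 of 9 passed at an unadjusted p under 0.05, as did 20.5% of all tested genes. LBP fell by 1.69 (SE 0.397, adjusted p = 0.0126, limma), from 2.55, 2.19 and 0.70 to 0.05, -0.08 and 0.40, and SAA1 differed by -1.34 (SE 0.436, adjusted p = 0.0642). The other 7 genes lay between -0.56 (SAA2) and 0.09 (SAA4), with a median over the 9 of -0.21. With slide as a block SAA1 was called too (adjusted p = 0.0456), where 6.53% of all tested genes fell. Without replicate 3 of FZ8CRD, LBP fell by 2.25 (adjusted p = 0.000133) and SAA1 fell by 1.93 (adjusted p = 0.0015), where 11.3% of all tested genes fell. LBP was not called when replicate 1 or 2 of either condition was left out, where 0.511% to 1.69% of all tested genes fell, nor in a fit of the 2 conditions alone, where 0% of all tested genes fell.

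The 2 SAA2 probes parted with FZ8CRD. The probe to NM_001127380 was at 1.91, 0.92 and 0.00 in untreated cells, at -1.09, -1.90 and -4.55 with FZ8CRD and at -5.25, -5.04 and -5.27 with FZ8CRD and Wnt3a, so that its condition means spanned 70.2-fold where the other probe spanned 12.9-fold. With Wnt3a in both arms FZ8CRD lowered it by 4.73 (SE 0.670, adjusted p = 2.25e-05, limma), and Wnt3a with FZ8CRD lowered it by 2.68 (SE 0.670, adjusted p = 0.018), where the NM_030754 probe differed by -0.89 and -0.56. In the conditions without FZ8CRD both probes kept the same order of means. On replicate 3 of FZ8CRD the 9 tested genes and the second SAA2 probe were each closer to an FZ8CRD array with Wnt3a than to their own replicates. For both SAA2 probes, SAA1, LBP and A2M that array was the lowest of the 3, and for SAA4, HP, ORM1, ORM2 and HAMP it was the middle one.

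**Figure D4:**
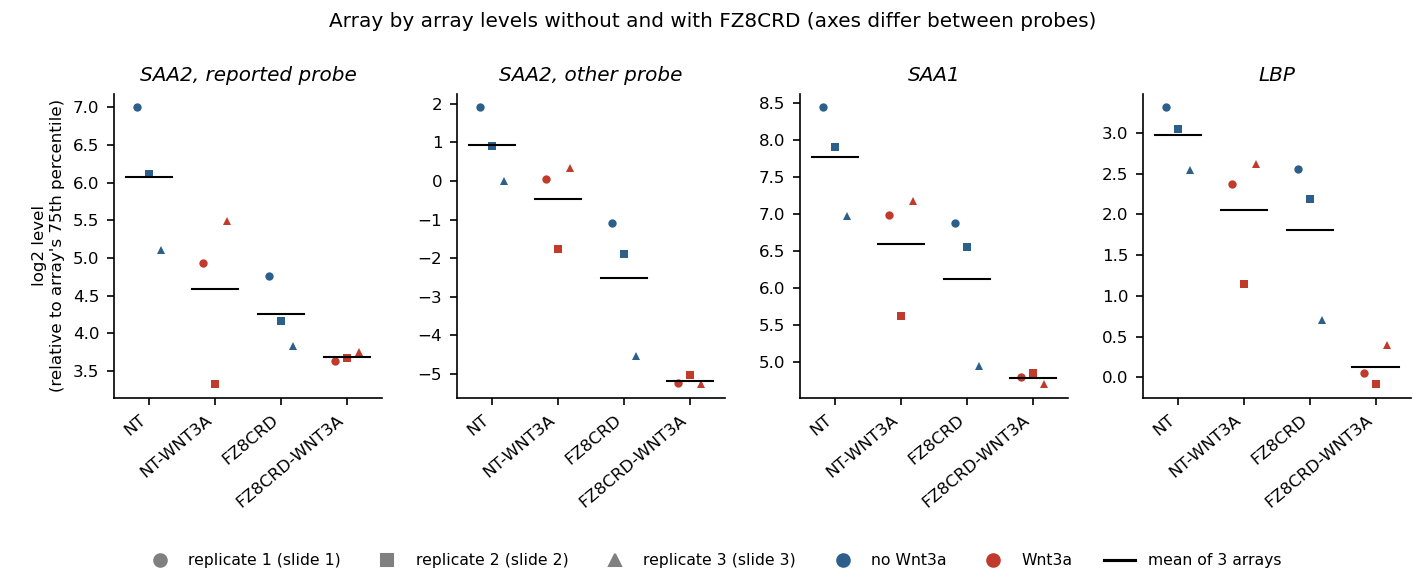
Log2 level on each array (y axis, relative to the 75th percentile) of both SAA2 probes, SAA1 and LBP in untransfected cells without and with Wnt3a and FZ8CRD; shapes are replicates and bars means of 3 arrays. Replicate 3 of FZ8CRD sits near the 3 arrays with FZ8CRD and Wnt3a for both SAA2 probes (the one to NM_001127380 is labelled other probe), SAA1 and LBP.

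The difference between the Wnt3a responses with and without FZ8CRD was called for none of the 9 genes (limma, 0.073% of all tested genes called). SAA4 alone passed at an unadjusted p under 0.05, as did 12.7% of all tested genes, with a difference of 1.63 (95% interval 0.21 to 3.06, adjusted p = 0.309), while LBP and SAA1 had -0.77 and -0.16. Without replicate 3 of every condition SAA4 was called (2.61, adjusted p = 0.0395, limma), where 6.27% of all tested genes rose. The 2 responses share no arrays, but the slide 3 contrast in untransfected cells, described above, enters this difference.

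CTNNB1 siRNA was compared with control siRNA. Without Wnt3a none was called (limma, 0 of 9, against 4.4% of all tested genes that rose), 1 passed at an unadjusted p under 0.05 (22.7% of all tested genes), and the median difference was 0.35, against -0.03 over all tested genes. SAA4 was higher in all 3 arrays, by 1.32 (SE 0.483, 95% interval 0.31 to 2.33, adjusted p = 0.0904), ORM1 by 0.54 and ORM2 by 0.52, each with no overlap between the groups (15.9% of all tested genes), and LBP differed by -0.34 (SE 0.397, adjusted p = 0.728), also without overlap (20.3% of all tested genes). A fit of these 2 conditions alone called SAA4, ORM1 and ORM2 (adjusted p = 0.0234, 0.0278 and 0.0254, limma), where 7.84% of all tested genes rose. With Wnt3a, ORM1 rose by 1.07 (SE 0.306, adjusted p = 0.0266), 1 of 9 where 4.08% of all tested genes rose, and ORM2 differed by 0.94 (SE 0.327, 95% interval 0.26 to 1.63, adjusted p = 0.0742; 0.0404 with slide as a block, where 6.09% of all tested genes rose) and SAA4 by 0.95 (SE 0.483, adjusted p = 0.265). The ORM1 call was lost without replicate 2 or 3 of every condition, without replicate 2 of siCTRL-WNT3A or replicate 2 or 3 of siCTNNB1-WNT3A, with spike-in scaling, with no filter and in a fit of these 2 conditions alone, settings in which 0.162% to 3.97% of all tested genes rose.

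Other acute-phase proteins, both those known to go up and those known to go down in an acute-phase response, mostly fell after control siRNA and with FZ8CRD when no Wnt3a was present. Of 19 tested other positive acute-phase proteins, 15 fell and 1 rose after control siRNA without Wnt3a (median -1.5), and 16 fell with FZ8CRD without Wnt3a (median -1.93). In these comparisons 10.1% and 22.2% of all tested genes fell and 12.3% and 19.7% rose. Among them were C4BPA (-2.77 after control siRNA, adjusted p = 0.000672, limma), a complement regulator, ceruloplasmin CP (-1.84, adjusted p = 0.00135) and FGB (-1.90, adjusted p = 0.0026), a fibrinogen chain. Of 12 negative acute-phase proteins, 10 fell after control siRNA (median -2.29) and 11 with FZ8CRD (median -2.58), among them ALB (-1.65 and -1.81), the fetuin AHSG (-3.49 and -4.07) and transferrin TF (-4.14 with FZ8CRD). With Wnt3a in both arms, 12 other positive and 6 negative proteins fell after control siRNA, where 3.59% of all tested genes fell, and 12 and 4 fell with FZ8CRD, where 18.9% fell. The 12 negative proteins had a median of -0.23 in the last comparison, with 7 of them lower.

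Few genes of either list were called for Wnt3a, although most were lower with it in the 3 settings without FZ8CRD. In untransfected cells no gene of either list was called (2.61% of all tested genes fell), while 18 of 19 positive and 11 of 12 negative proteins were lower (medians -0.78 and -0.94). After CTNNB1 siRNA none was called either (0.00406% of all tested genes fell), with 17 and 11 lower (medians -0.52 and -0.65). After control siRNA no positive protein was called (16 lower, median -0.45) and the negative protein FETUB rose (0.62, adjusted p = 0.0314, limma), where 1.09% of all tested genes rose; 10 of the 12 negative proteins were lower (median -0.40). With FZ8CRD, Wnt3a lowered C3 (-0.73, adjusted p = 0.0325), SOD2 (-1.04, adjusted p = 0.0388) and FGA (-1.14, adjusted p = 0.0440), and raised the phospholipase PLA2G2A (1.75, adjusted p = 0.00162) and the haem carrier HPX (2.13, adjusted p = 0.0385). It also raised 3 negative proteins, TTR (2.62, adjusted p = 0.0283), APOA1 (2.22, adjusted p = 0.0379) and F12 (2.75, adjusted p = 0.0486), with a median of 1.30 over the 12. These were 3 of 19 positive proteins that fell, where 3.94% of all tested genes fell, and 2 of 19 positive and 3 of 12 negative proteins that rose, where 4.36% rose. CTNNB1 siRNA lowered CD14, the partner of LBP and also a macrophage marker, by 1.12 without and 1.30 with Wnt3a, lowered PTX3 without it, and raised RBP4 (0.98) without and ALB (1.19) with Wnt3a.

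**Figure D5:**
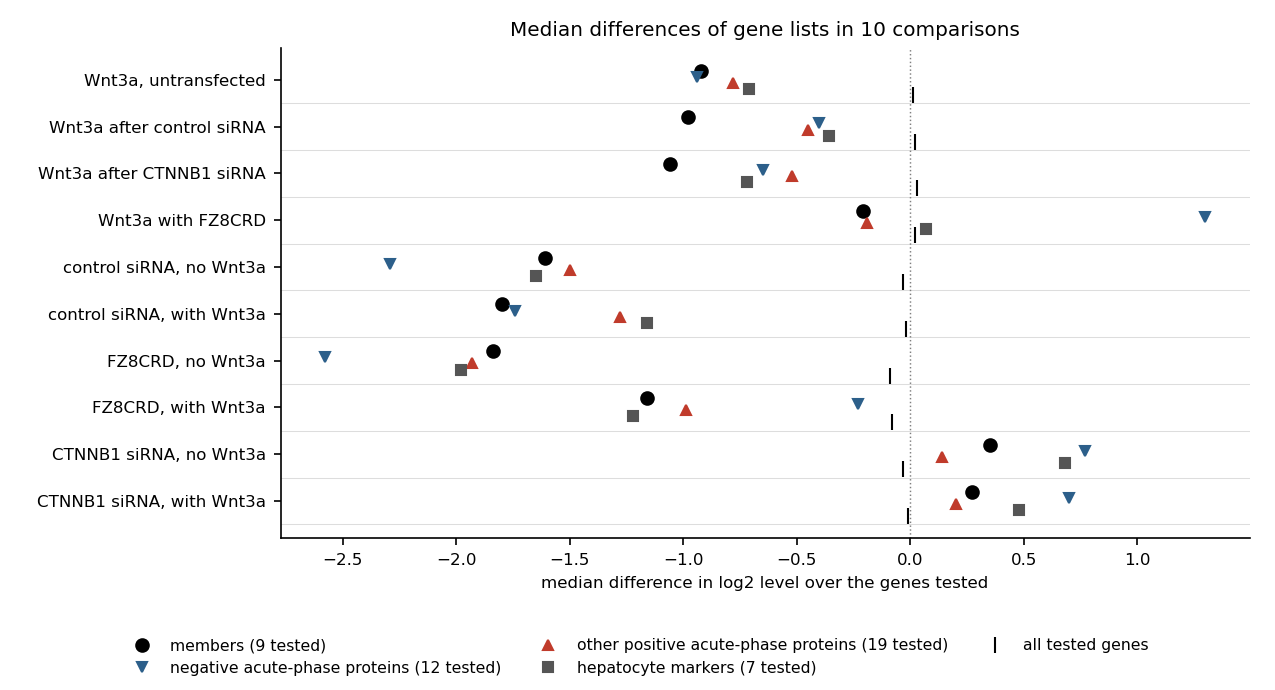
Median difference in log2 level (x axis) in 10 comparisons (y axis) for the 9 tested genes, 19 other positive acute-phase proteins, 12 negative acute-phase proteins, 7 hepatocyte markers and all tested genes. Positive and negative acute-phase proteins lie on the same side of 0 except for Wnt3a with FZ8CRD. There the negative list has a median of 1.30. The hepatocyte list shares ALB, TTR and TF with the negative list and SERPINA1 with the positive list.

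Most markers of hepatocytes were lower after control siRNA and with FZ8CRD, as were these genes. The marker list is not separate from the other lists. ALB, TTR and TF are also among the negative acute-phase proteins and SERPINA1 among the other positive ones. HNF4A is also among the hepatic transcription factors described below. For Wnt3a with FZ8CRD, which lowered LBP, 1 of 7 tested hepatocyte markers fell and 1 rose (median 0.07). In that comparison 3.94% of all tested genes fell and 4.36% rose. The summed linear level of 8 hepatocyte markers (ALB, APOB, TF, SERPINA1, TTR, CYP3A4, CYP2E1 and HNF4A, in multiples of the 75th percentile) was 771 to 1420 over the untreated arrays, 392 to 904 with Wnt3a, 371 to 405 after control siRNA, 190 to 266 with Wnt3a added, 468 to 614 and 280 to 489 after CTNNB1 siRNA without and with Wnt3a, 247 to 364 with FZ8CRD and 371 to 383 with FZ8CRD and Wnt3a. All 7 markers tested fell after control siRNA and all 7 fell with FZ8CRD, both without Wnt3a (10.1% and 22.2% of all tested genes), and 4 and 5 fell with Wnt3a (3.59% and 18.9%); in 5 conditions no array had CYP2E1 well above background. Biliary markers (KRT7, KRT19, SOX9, EPCAM and SPP1) summed to 228 to 387 over all arrays, with EPCAM not well above background in 7 of the 8 conditions. Fibroblast and stellate markers summed to 10.4 to 22.4, with THY1 not well above background in any condition; macrophage markers to 2.83 to 6.87, with CD163 not well above background in 7 of the 8 conditions; and endothelial markers to 0.763 to 4.2. The fibroblast and stellate sum was 10.4 to 12.1 in untreated cells and 14.8 to 19.7 with Wnt3a, 11.2 to 12.3 and 15.0 to 16.1 after control siRNA without and with Wnt3a, 10.4 to 11.1 and 11.6 to 12.3 after CTNNB1 siRNA, and 12.7 to 14.4 and 21.0 to 22.4 with FZ8CRD. Of 5 tested markers of this list 3 rose with Wnt3a in untransfected cells, 2 after control siRNA, none after CTNNB1 siRNA and 3 with FZ8CRD (2.99%, 1.09%, 0.0365% and 4.36% of all tested genes), among them the collagen COL1A1 (1.86, 2.19 and 2.65 in the 3 settings where it rose). After CTNNB1 siRNA 3 of 5 tested macrophage markers, CD14, CSF1R and MARCO, fell both without and with Wnt3a (list medians -1.12 and -1.22), where 6.17% and 6.5% of all tested genes fell, and the macrophage sum, over arrays without and with Wnt3a, was 4.58 to 5.48 after control siRNA and 2.83 to 3.52 after CTNNB1 siRNA. The sums weigh each probe by its brightness and hide opposite changes: with FZ8CRD, Wnt3a lowered APOB (-2.15, adjusted p = 0.00376, limma) and raised TTR (2.62, adjusted p = 0.0283). The endothelial sum was 3.45 to 4.2 in untreated cells and 0.959 to 1.84 with FZ8CRD, and 2.23 to 3.41 and 0.763 to 0.914 with Wnt3a added. Of 4 tested endothelial markers 1 fell with FZ8CRD both without and with Wnt3a (22.2% and 18.9% of all tested genes). The macrophage sum was 4.29 to 6.87 in untreated cells and 3.37 to 3.96 with FZ8CRD, and 5.38 to 5.96 and 4.01 to 4.5 with Wnt3a added. The part of the hepatocyte, fibroblast, macrophage and endothelial markers in the acute-phase results was not tested.

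Cytokines that drive these genes, and their receptors, were examined next. Of 19 tested genes of interleukin-6 family signalling, IL11 rose with Wnt3a in untransfected cells (1.59, adjusted p = 0.0325, limma), after control siRNA (1.99, adjusted p = 0.0178) and with FZ8CRD (2.19, adjusted p = 0.00385), and IL6R, the interleukin-6 receptor, rose after CTNNB1 siRNA by 1.29 (adjusted p = 0.00208) without and 1.57 (adjusted p = 0.000268) with Wnt3a. IL6R fell with FZ8CRD by 1.09 and IL6ST, the shared signalling chain, by 0.72; after control siRNA IL6 fell by 1.1 (adjusted p = 0.0214). In all, 1 fell and 3 rose after control siRNA without Wnt3a, and 4 fell and 5 rose with FZ8CRD without Wnt3a, with list medians of 0.09 and -0.01, where 10.1% and 22.2% of all tested genes fell and 12.3% and 19.7% rose, so the shares with FZ8CRD were near those of all genes.

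Of 19 tested genes of interleukin-1, tumour necrosis factor and NF-κB signalling, 5 fell and 2 rose after control siRNA and 6 fell and 2 rose with FZ8CRD, both without Wnt3a (medians -0.17 and -0.20), against the same shares of all tested genes (10.1% and 22.2% lower, 12.3% and 19.7% higher). NFKBIZ, a nuclear cofactor of NF-κB, fell by 1.13 (adjusted p = 0.000817, limma) and 1.55 (adjusted p = 9.21e-06), and TNFAIP3, a feedback inhibitor, fell by 0.54 and 1.0. CTNNB1 siRNA lowered the interleukin-1 receptors IL1R1 (-1.14 without and -1.39 with Wnt3a) and IL1R2 (-1.56 and -1.52). Wnt3a with FZ8CRD, the contrast that lowered LBP, lowered IL1R2 (-1.17, adjusted p = 0.0185) and the inhibitor NFKBIA (-0.43, adjusted p = 0.018) and raised IL1R1 (0.86, adjusted p = 0.00802); Wnt3a alone raised IL1R1 by 0.84 (adjusted p = 0.014) and lowered RELB and NFKB1.

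Of 12 hepatic transcription factors that act on acute-phase promoters, 3 fell and 1 rose after control siRNA, and 4 fell and 1 rose with FZ8CRD, both without Wnt3a, where 10.1% and 22.2% of all tested genes fell and 12.3% and 19.7% rose. Without Wnt3a, ONECUT1 (HNF6) fell by 2.94 (adjusted p = 0.000187, limma) after control siRNA and by 4.47 (adjusted p = 4.23e-07) with FZ8CRD. HNF4A fell by 1.0 and 1.7 in these comparisons, and CEBPA fell by 1.02 with FZ8CRD. With Wnt3a in both arms 2 factors fell after control siRNA (3.59% of all tested genes), and 7 fell and 1 rose with FZ8CRD (18.9% and 18.2%). After CTNNB1 siRNA ONECUT1 rose by 1.46 (adjusted p = 0.0361) without and by 1.75 (adjusted p = 0.0113) with Wnt3a. Wnt3a with FZ8CRD lowered FOXA1 (-1.29, adjusted p = 0.00529), CEBPG and CEBPA, and in untransfected cells Wnt3a changed USF1 alone, which rose by 0.70 (adjusted p = 0.0214).

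Among 9 genes of the glucocorticoid receptor and its targets, 1 fell and 1 rose after control siRNA without Wnt3a (10.1% and 12.3% of all tested genes). With FZ8CRD without Wnt3a 6 fell and 2 rose (22.2% and 19.7% of all tested genes), including TSC22D3 (-0.65, adjusted p = 0.000989, limma) and ZBTB16 (-0.64, adjusted p = 0.000328). With Wnt3a in both arms none fell and 1 rose after control siRNA (3.59% and 5.45% of all tested genes). In that setting 4 fell and 2 rose with FZ8CRD (18.9% and 18.2%). Among 23 tested regulators of hepcidin and iron, 4 fell and 3 rose after control siRNA and 6 fell and 6 rose with FZ8CRD, both without Wnt3a. These shares were near those of all tested genes (10.1% and 22.2% lower, 12.3% and 19.7% higher). HAMP was called in neither. HJV, the BMP co-receptor haemojuvelin, fell by 2.15 (adjusted p = 0.00173) and 2.37 (adjusted p = 0.000247), and ID1, a BMP target, rose by 0.95 with FZ8CRD (adjusted p = 5.05e-06) and by 0.76 after CTNNB1 siRNA (adjusted p = 0.000395). The iron exporter SLC40A1 fell by 1.15 after control siRNA, by 1.22 with FZ8CRD and by 0.80 with Wnt3a in untransfected cells.

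Of 8 tested receptors and partners of these proteins, TLR4 rose with FZ8CRD by 0.95 (adjusted p = 5.61e-05, limma) and after control siRNA by 0.44 (adjusted p = 0.0461), LY96, its co-receptor for lipopolysaccharide, rose by 0.86 with Wnt3a and FZ8CRD (adjusted p = 0.00352), and LRP1, the receptor that clears A2M, fell by 0.50 with FZ8CRD (adjusted p = 6.49e-05). Of 8 tested genes that served as checks of the treatments (CTNNB1 and known Wnt targets), 4 rose with Wnt3a in untransfected cells, among them LEF1 (1.12, adjusted p = 0.000392) and TCF7 (1.68, adjusted p = 0.00108), 4 rose after control siRNA, none after CTNNB1 siRNA (limma), and 2 with FZ8CRD, where 2.99%, 1.09%, 0.0365% and 4.36% of all tested genes rose.

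Over the 24 arrays the tested genes other than HAMP varied together, with Pearson correlations of 0.665 (SAA4 with LBP) to 0.992 (ORM1 with ORM2) over 28 pairs. After the condition means were removed the correlations ran from 0.671 to 0.973, so replicates of a condition varied together too. The arrays share conditions and slides, and no p-value is given for these correlations. HAMP correlated with the other 8 by 0.147 (SAA4) to 0.397 (LBP).

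For each gene the 3 tested genes with the most similar values over the 24 arrays were listed. SAA1 was closest to SOD2 (r = 0.985), an enzyme of the mitochondrial antioxidant defence, then to FLRT3 (0.976) and TMEM41B (0.963). SAA2 and A2M were closest to each other (0.980), SAA2 next to SLPI and GPRC5B (both 0.959), and A2M to UBD (0.967) and XBP1 (0.963). SAA4 was closest to GLYATL1 (0.975), APOH (0.972) and AMBP (0.971), all liver genes. HP followed HPR, ITIH2 (0.976) and TM4SF4 (0.971). ORM1 and ORM2 followed each other and then ALB (0.988 and 0.984), with SPINT3 (0.967) and KANK1 (0.971) next. LBP was closest to TMEM170B (0.962), KCNMB4 (0.961) and ELOVL7 (0.959).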

How the data were processed

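RNA of HepaRG cells was hybridised to 24 one-colour Agilent arrays of 62976 spots. Per the file headers the authors scanned Cy3 signal and extracted it with Agilent Feature Extraction (version 10.7.3.1 in the submitters' processing notes); the deposited scanner files give background-corrected intensity values (the processed signal). The authors also deposited a table of log2 values with each probe's median set to 0, covering 25443 probes, used as an alternative; its columns correlated with the scanner values at r = 0.926 to 0.992.

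Processed signals were divided by the 75th percentile of their array, floored at 1.43% of it and converted to log2. Outlier and control spots were left out and spots of a probe averaged. A probe was kept if 1 or more conditions had it well above background in all 3 replicates, and the kept probe of highest mean stood for a gene. Condition means were fitted over all 24 arrays, with no slide term, in limma 3.58.1 (R 4.3.3, lmFit, eBayes with trend). The main calls therefore do not use the pairing by slide described below. P-values were adjusted by Benjamini and Hochberg over 24643 genes, with 0.05 as threshold. On simulated data for control siRNA without Wnt3a, 73% of genes changed by log2 1 and 95% of those changed by log2 2 were recovered among 24604 genes. There were 9 false calls. The 200 changed genes were drawn at random from all of them, with noise independent between arrays and no slide effect. In untreated cells the median SD of the 9 acute-phase genes was 0.621, against 0.183 over all tested genes. These recovered shares therefore do not apply to the 9 genes. The replicate numbers are slides, which pairs the samples: 82 of 84 pairs of same-numbered arrays had deviations correlated over 0.1 (mean r 0.384). Deviations from a condition mean cancel within the condition, so the mean r of -0.191 for other pairs is no separate evidence. Alternatives were other scalings, filters, floors and probe rules, the deposited values, a slide block, the methods' thresholds, fits of 2 conditions, and leaving out replicates. Genes and lists were chosen with earlier results of these data known; beyond the 10 genes, listed genes past the threshold (the 6 of smallest p per list and comparison) could be named. Promoter sequences are RefSeq's (GRCh38.p14). A gene each of the hepatocyte marker and hepatic transcription factor lists is not reported here.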

Additional observations from a re-analysis of the deposited data

How the results depend on the processing

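The number of tested genes called, of 9, was computed under each alternative. No difference of a called gene reversed its direction; over the 30 called differences and their alternatives, 520 values kept their call and 80 lost it. For Wnt3a in untransfected cells, where 0 were called, spike-in scaling called 3, a filter on all 24 arrays 1, the replicate block (slide) 3 and the methods' thresholds 3 (1.08%, 3.11%, 5.36% and 2.61% of all tested genes lower). For Wnt3a after control siRNA (0), the block called 2, the methods' thresholds 3 and a fit of the 2 conditions alone 7 (2.17%, 1.35% and 3.41% lower). For Wnt3a with FZ8CRD (1), the block called 2, the methods' thresholds 2 and the fit of 2 conditions 0 (6.53%, 2.84% and 0% lower). For control siRNA without Wnt3a (7), no filter also called CRP, tested there (adjusted p = 0.041, limma), where 5.08% of all tested genes were lower. For control siRNA with Wnt3a (7), the fit of 2 conditions called 0, and the block and the methods' thresholds each called 8, adding LBP (0.00406%, 6.03% and 3.29% lower); spike-in scaling and no filter each called 5, without SAA1 and SAA4 (0.422% and 1.4% lower). No filter and the fit of 2 conditions called 8 (CRP, tested there, in place of LBP) and 6 for FZ8CRD without Wnt3a (8; 11.9% and 13.4% lower) and 5 and 5 with Wnt3a (6; 10.1% and 13.8% lower). For CTNNB1 siRNA without Wnt3a (0), the fit of 2 conditions called 3 (7.84% higher). For CTNNB1 siRNA with Wnt3a (1), spike-in scaling called 0, no filter 0, the fit of 2 conditions 0, the block 2 and the methods' thresholds 2 (0.162%, 2.22%, 3.43%, 6.09% and 1.75% higher). The cause of these changes was not tested.

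Leaving out replicates gave 0 to 7 called genes for Wnt3a in untransfected cells, 0 to 1 after control siRNA, 0 to 0 after CTNNB1 siRNA and 0 to 2 with FZ8CRD, while 0% to 13.4%, 0% to 1.36%, 0% to 0.264% and 0% to 11.5% of all tested genes fell. It gave 0 to 7 for control siRNA without and 0 to 8 with Wnt3a (0.353% to 13.4% and 0% to 6.63% of all tested genes lower), 6 to 8 for FZ8CRD without and 2 to 8 with Wnt3a (13% to 23.7% and 8.71% to 21.3% lower), 0 to 0 for CTNNB1 siRNA without and 0 to 2 with Wnt3a (0.633% to 3.96% and 0.67% to 3.97% higher), and 0 to 0 and 0 to 1 for the differences in Wnt3a response with CTNNB1 siRNA and FZ8CRD (0% to 0.00812% and 0% to 6.27% higher). Called under all 20 alternatives were A2M, HP, ORM1, ORM2 and SAA4 for FZ8CRD without Wnt3a, and HP and LBP for FZ8CRD with Wnt3a. Spike-in scaling shifted the median of all tested genes by -0.39 (Wnt3a in untransfected cells) to 0.30 (difference in Wnt3a response with FZ8CRD). It left 1.08% lower and 0.0974% higher for Wnt3a in untransfected cells, 6.16% and 0.499% for control siRNA without Wnt3a, and 27.7% and 2.24% for FZ8CRD without Wnt3a. SAA2 and SAA4 for FZ8CRD with Wnt3a were not called, but SAA2 was with the mean of its probes, and both without replicate 2 of NT-WNT3A. CRP, near background, was limited by signal.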
